A study of Caenorhabditis elegans with 3 samples.

Results

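The 30 genes described here are named genes of the Caenorhabditis elegans germline, and all 30 were found among the 19973 protein-coding genes on nuclear chromosomes of the annotation. For each gene the sites of EGL-27 were collected by a fixed rule: a peak belonged to a gene when its summit lay in the gene body or within 2000 bp of the start of one of the gene's transcripts, and this stretch is called the gene's window. Chromatin immunoprecipitation followed by sequencing (ChIP-seq) had been carried out on whole L4 larvae, the last larval stage before adulthood, of the strain OP177 (unc-119(ed3) III; wgIs177), in which a transgene supplies EGL-27 with a GFP-FLAG tag at its C-terminus. Both sexes were pooled, and the 3 libraries are biological replicates 1, 2 and 4 of 1 group, with no second condition. Peaks came from 5 lists on the genome build ce11 (WBcel235): a pooled list of 30000 peaks that by its deposited name holds background beside peaks, a reproducible list of 102 peaks drawn from all libraries, and the lists of the single libraries with 9666 (replicate 1), 13686 (replicate 2) and 6636 (replicate 4) peaks. The depth of sequencing is unknown, a possible control experiment named in the labels was not analysed here, the signal of a peak is compared within its own list alone, and intervals cover counting error over peaks. The labels do not say in which tissues the tagged protein was made.

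Germ cells of the worm keep P granules, cytoplasmic bodies of RNA and protein that hold Vasa-type helicases and the small RNA machinery. Their nuclei pass through meiosis along the arms of the gonad, where a synaptonemal complex joins paired chromosomes, and their fate is set largely after transcription, by RNA-binding proteins that hold messages silent until they are needed. EGL-27 is a relative of the MTA subunits of the NuRD chromatin remodelling complex. Whole animals were used, so binding in a few germ cells and weak binding in many cells cannot be told apart.

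No germline gene had a peak in the reproducible list, 0 of 30, where 0.566% of all protein-coding genes had one. In the pooled list 21 of the 30 (70%) had a peak, against 77.3% of all protein-coding genes. In the single libraries 10 genes (33.3%) had a peak in replicate 1, 14 (46.7%) in replicate 2 and 3 (10%) in replicate 4, against 39.9%, 49.9% and 28.7% of all protein-coding genes. The pooled, replicate 1 and replicate 2 shares lay near those of all genes. When each summit was given to the nearest start alone, 13 of the 30 had a pooled peak, against 59.9% of all protein-coding genes, and 6 a replicate 1 peak, against 26.4%. In the gene body alone the direction changed. There 16 of the 30 had a pooled peak (48.8% of all protein-coding genes), 7 a replicate 1 peak (22.4%) and 10 a replicate 2 peak (28.0%), each above the share of all genes. Replicate 4, with 3 (14.7%), stayed below. The members' gene bodies had a median length of 2604 bp, against 2027 bp for all protein-coding genes. The part of this length in the gene body counts was not tested. Of the 3 libraries, replicate 4 had the share farthest below that of all genes. These are descriptions of a list of genes chosen by name, with no test.

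**Figure D1:**
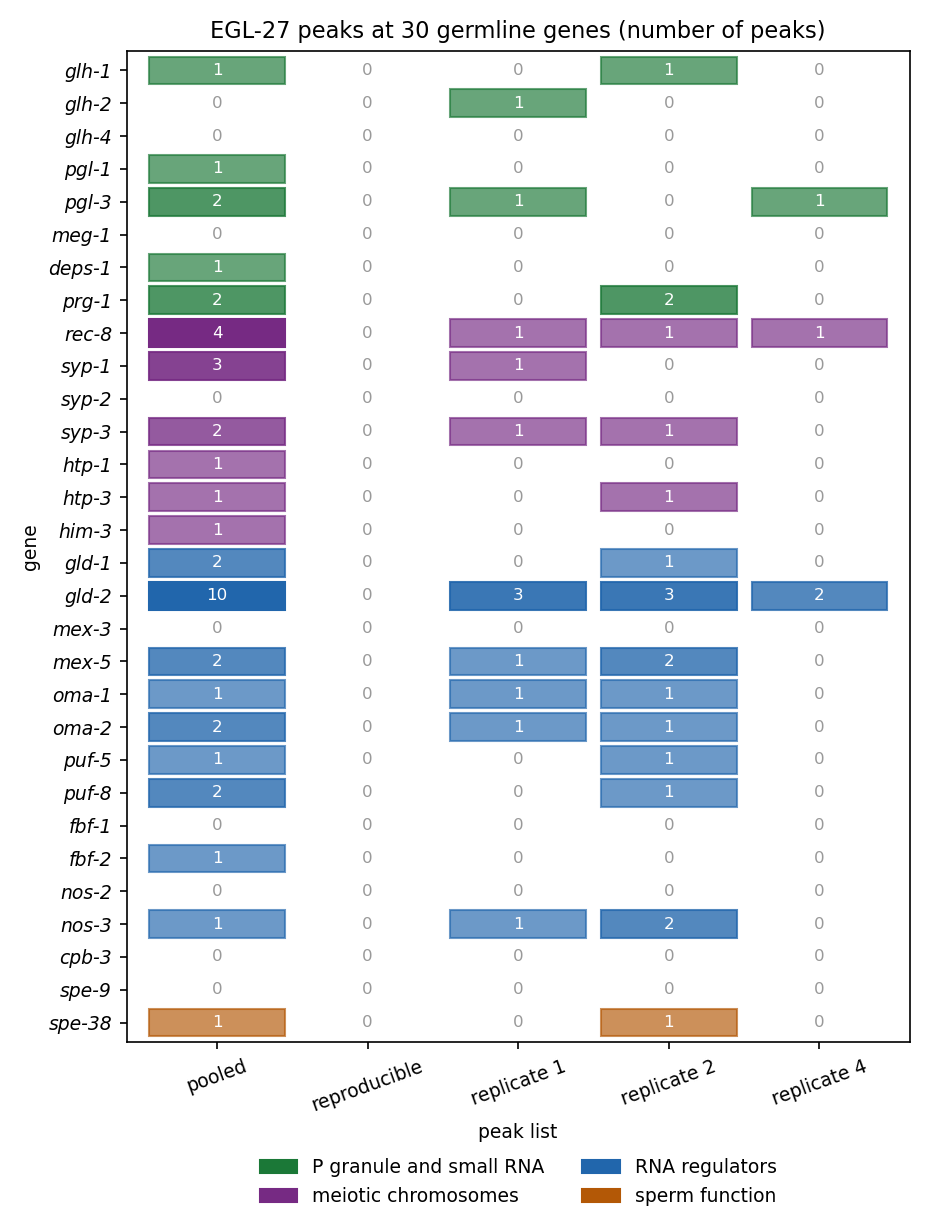
Number of EGL-27 peaks in the window of each of the 30 germline genes (rows, coloured by role) in each of the 5 peak lists (columns). The reproducible column holds 0 throughout, and rec-8 and gld-2 have a peak in each of the 3 libraries.

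A peak in 2 or more libraries was found at 8 of the 30 genes (26.7%), against 35.8% of all protein-coding genes, and a peak in all 3 libraries at 2 (6.67%), against 10.8%. The 2 were rec-8 and gld-2. The 6 with peaks in 2 libraries were pgl-3, syp-3, mex-5, oma-1, oma-2 and nos-3. With 1 library left out, a peak in both of the others was found at 2 members without replicate 1, at 3 without replicate 2 and at 7 without replicate 4, against 18.3%, 15.2% and 23.9% of all protein-coding genes. Over all genes too the count fell least without replicate 4. A further 9 genes had a peak in 1 library, which was replicate 2 for 7 of them and replicate 1 for the other two (glh-2 and syp-1). The remaining 13 genes had no library peak with its summit in the window. The shares of all protein-coding genes with a peak in exactly 1 library or in none were not counted. Replicate 2 has the longest of the library lists, so these counts are not read as a trait of the members.

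Few of these peaks lay at the same place in different libraries, as was the case over all genes. Of all protein-coding genes 7142 had a peak in 2 or more libraries, and 1699 of these had summits of 2 libraries within 100 bp. Summits of 2 libraries within 100 bp of each other were found at 1 gene, mex-5 (3.33%), against 8.51% of all protein-coding genes, and summits of all 3 libraries within 100 bp at 0, against 0.621%. At rec-8 and gld-2, the genes with a peak in every library, no position was shared by all 3. No peak at all in any of the 5 lists was found at 8 genes (26.7%), against 15.6% of all protein-coding genes: the helicase gene glh-4, the P granule gene meg-1, the synapsis gene syp-2, the RNA regulator genes mex-3, fbf-1, nos-2 and cpb-3, and the sperm gene spe-9. By chromosome, 13 of the 30 lie on I, 6 on II, 6 on IV, 4 on V and 1 on X, with a pooled peak at 8, 4, 6, 3 and 0 of them, against 80.7%, 75.2%, 76.2%, 72.8% and 80.6% of all protein-coding genes on the same chromosomes.

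**Figure D2:**
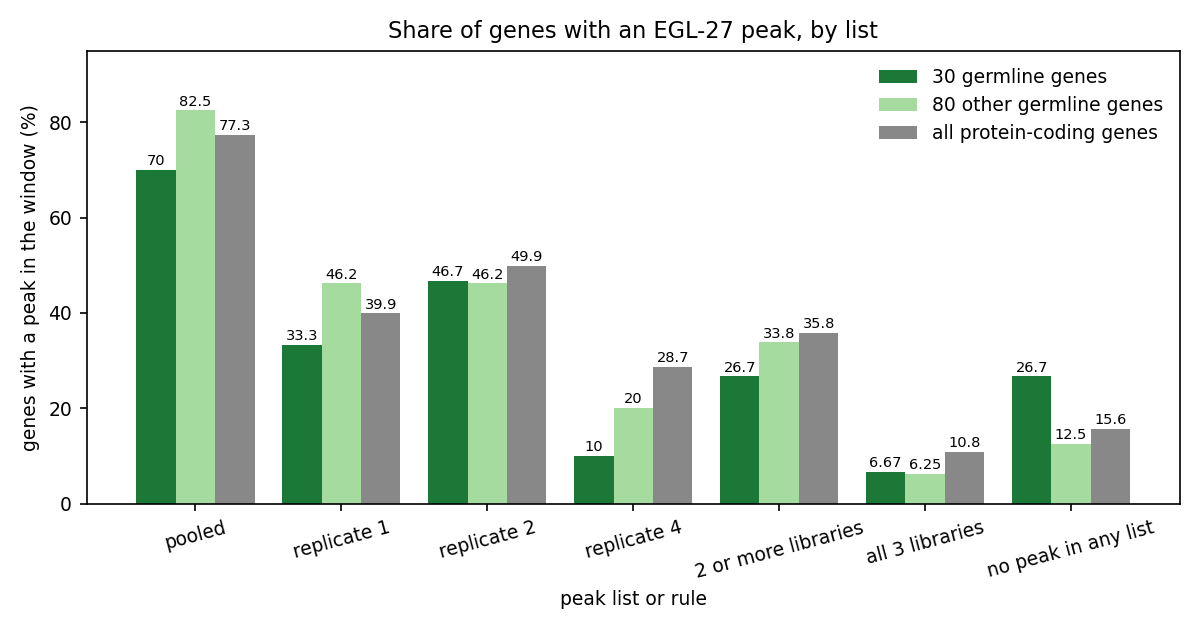
Percent of genes with a peak in their window (vertical axis), for the 30 germline genes, 80 other germline genes and all 19973 protein-coding genes, by list or rule. The bar of the 30 genes is the lower one beside all protein-coding genes in each of the lists and library rules drawn, and the higher one for genes with no peak (26.7% against 15.6%).

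The members' windows were of ordinary size, with a median of 4604 bp against 4182 bp for all protein-coding genes. In total they covered 0.154 Mb and held 40 pooled peaks, a density of 259 peaks per Mb (exact Poisson 95% interval 185 to 353). The windows of all protein-coding genes together had 306 per Mb and the nuclear genome 299 per Mb. The window of gld-2 held 10 of the 40 peaks, and with gld-2 left out the members had 221 per Mb. In gene bodies alone the members had 314 per Mb, against 297 for all protein-coding genes, so the direction changed with the rule. In the full windows the densities were 77.7 against 99.0 per Mb in replicate 1 and 117 against 139 in replicate 2. In replicate 4 the members had 25.9 peaks per Mb (interval 7.06 to 66.3), against 67.0 for all protein-coding genes, and 66.2 for the nuclear genome. The upper end of the interval lay between these values, so the difference is at the edge of counting error. It rests on 4 peaks, of which 2 lay at gld-2. In the other lists the members' interval held the value of all genes.

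The summit sequences of 4 of these peaks show what lay under them. They were chosen as the highest pooled signal among the member peaks whose sequence could be shown, which leaves out those that touch an untranslated region (rec-8), the only one of these with GAGAGA or its reverse complement (htp-1), a peak near a start with a partner in a library (oma-1), and a peak that lies in the windows of 2 members (mex-5 and rec-8). Each is the plus strand of ce11 for 100 bp to each side of the summit, 5′ to 3′, read from the RefSeq copy of WBcel235. Capitals mark matches, on either strand, to the motifs searched. The oma-1 stretch, named a start peak below, lies inside the gene and does not hold the start: its summit is in an intron, 372 bp from the start.
rec-8 exon peak (chrIV:13349903-13350103): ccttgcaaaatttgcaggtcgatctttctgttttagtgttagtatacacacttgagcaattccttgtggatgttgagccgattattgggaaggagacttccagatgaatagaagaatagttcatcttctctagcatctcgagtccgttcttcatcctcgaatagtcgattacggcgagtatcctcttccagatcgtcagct
oma-1 start peak (chrIV:8889248-8889448): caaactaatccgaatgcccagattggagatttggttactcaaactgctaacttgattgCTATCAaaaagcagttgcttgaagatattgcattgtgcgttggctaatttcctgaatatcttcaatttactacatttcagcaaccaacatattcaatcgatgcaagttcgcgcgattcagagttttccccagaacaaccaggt
htp-1 downstream peak (chrIV:5389552-5389752): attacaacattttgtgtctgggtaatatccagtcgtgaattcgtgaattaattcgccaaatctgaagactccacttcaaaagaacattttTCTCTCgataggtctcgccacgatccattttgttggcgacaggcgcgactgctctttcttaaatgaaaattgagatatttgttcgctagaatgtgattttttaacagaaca
mex-5 and rec-8 shared peak (chrIV:13353987-13354187): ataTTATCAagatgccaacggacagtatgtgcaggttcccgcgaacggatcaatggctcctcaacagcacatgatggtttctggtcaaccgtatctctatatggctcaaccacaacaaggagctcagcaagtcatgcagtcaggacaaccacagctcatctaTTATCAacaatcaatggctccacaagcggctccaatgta

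Motifs were looked for on either strand up to 100 bp from each summit. GAGAGA was present at 6 of the 40 pooled peaks of the members (15%, exact binomial 95% interval 5.71 to 29.8%), against 14.2% of all pooled peaks. The 6 lay at htp-1, htp-3, deps-1 and, in 3 cases, gld-2. CACGTG and GGGCGG were each present at 1 peak (2.50%), that of gld-1 and that at the end of mex-5, against 3.90% and 3.78% of all pooled peaks. Of the GATA-type sequences, TGATAA was present at 9 (22.5% against 18.8%), TGATAG at 3 (7.50% against 7.88%), AGATAA at 4 (10% against 11.5%) and AGATAG at 5 (12.5% against 6.13%). These share the letters GATA, and a peak can hold more than 1 of them. TTTCAAA was present at 8 (20% against 26.2%). For each of these motifs the interval of the members held the share of all pooled peaks. The median GC content of these windows was 37.3% at members and 35.8% over the pooled list.

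The signals of the members' peaks lay in the middle of the pooled list. Over the 40 peaks the authors' signal ran from 3.76 to 9.18 with a median of 5.24, against a median of 5.25 over the whole list, and the median percentile was 49.5. The highest, at oma-2, ranked 2197 of 30000, and the lowest signal in the reproducible list was 18.7. Of the 40, 2 (5%), at oma-2 and rec-8, were among the 3000 highest signals of the pooled list. The deposited q column, whose scale no source used here states, was below 0 for all 40, as for 29113 of the 30000. In the library lists the median percentile of the members' peaks was 77.9 for the 12 peaks of replicate 1, 51 for the 18 of replicate 2 and 43.4 for the 4 of replicate 4.

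**Figure D3:**
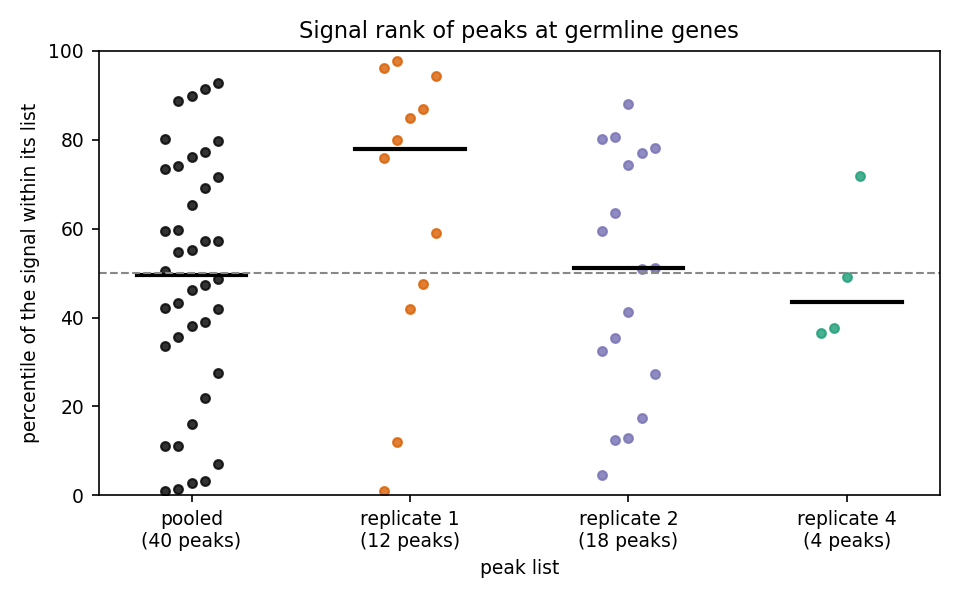
Percentile of the authors' signal within its list (vertical axis) for each peak at the 30 germline genes (points), by list, with the median as a black bar and 50 as a dashed line. The medians are 49.5 (pooled), 77.9 (replicate 1), 51 (replicate 2) and 43.4 (replicate 4).

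The members' pooled peaks were then matched to the libraries. A partner was a library peak that overlapped by 1 bp or more. Of the 40, 7 (17.5%) had a partner in replicate 1, 15 (37.5%) in replicate 2 and 4 (10%) in replicate 4, against 23.8%, 40.5% and 16.9% of all 30000. A partner in 2 or more libraries was found for 2 (5%, interval 0.611 to 16.9%), against 14.8% of the list, and in all 3 for 0 (upper bound 8.81%), against 2.15%. In no library had 16 a partner (40.0%), against 35.7%. Each of these shares of the list lay inside the members' interval, so at 40 peaks none of the differences exceeded counting error.

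Among the genes of P granules and small RNA pathways, 5 of 8 had a pooled peak, 2 a replicate 1 peak, 2 a replicate 2 peak and 1 a replicate 4 peak. Over all protein-coding genes these shares were 77.3%, 39.9%, 49.9% and 28.7%. The DEAD-box helicase gene glh-1, a relative of Vasa, had 1 pooled peak 1297 bp upstream of its start (chromosome I, 6852966 to 6853395, signal 5.54), and replicate 2 had a peak at the same place (signal 5.19, rank 3154), while replicates 1 and 4 had none. Its relative glh-2 was the reverse case. It had no pooled peak, but a replicate 1 peak in the 5' UTR, 20 bp from the start (I, 6513718 to 6514177), with a signal of 5.84 that ranked 211 of 9666, the highest percentile (97.8) of a library peak at any of the 30 genes. No peak of replicate 2, replicate 4 or the pooled list lay in that window. The third helicase gene, glh-4, had none in any list.

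The P granule scaffold gene pgl-3 had pooled peaks 14 bp (signal 5.09) and 594 bp (signal 4.43) from a start. Replicate 4 had a peak 54 bp from the start (signal 2.49, rank 4090 of 6636), and replicate 1 had one 2359 bp from a start, in a coding exon near the gene's end (signal 2.76). The related gene pgl-1 had 1 pooled peak in a coding exon (IV, 6975454 to 6975883, signal 4.11, rank 25182) and no library peak. The same peak lies 1839 bp upstream of the neighbouring gene him-3, for an axis protein of meiotic chromosomes, and is its sole peak too. The Piwi Argonaute gene prg-1, whose protein binds piRNAs, had pooled peaks 2361 bp into the gene (signal 5.43) and 503 bp upstream (signal 4.65), and replicate 2 had a peak at the upstream place (signal 3.89) and another in the 3' UTR (signal 3.19). The upstream summit was nearer to D2030.7, 290 bp from its start. The P granule gene deps-1 had 1 pooled peak in its 3' UTR (signal 5.45), overlapped by a replicate 1 peak (signal 2.82) whose summit, 84 bp away, lay outside the window and was not counted. The gene meg-1, for a protein of P granule segregation in embryos and the only member on the X chromosome, had none.

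Of the 7 genes of meiotic chromosomes 6 had a pooled peak, syp-2 being the exception, and 3 had a replicate 1 peak, 3 a replicate 2 peak and 1 a replicate 4 peak. The shares of all protein-coding genes were 77.3%, 39.9%, 49.9% and 28.7%, and 3 of 7 lies near those of replicates 1 and 2. The cohesin gene rec-8 had 4 pooled peaks, and a peak in each library, but at 3 different places. Replicate 1 had a peak in a coding exon 1098 bp from a start (signal 3.89, rank 1467 of 9666), replicate 2 one upstream of the gene (signal 3.33, rank 11968 of 13686), and replicate 4 one in another coding exon (signal 2.49, rank 4186 of 6636). The pooled peak with the highest signal at rec-8 (IV, 13349788 to 13350217, signal 8.78, rank 2622) had its summit 13 bp from that of replicate 4 and is the first sequence above. The others in the gene had 4.79 and 4.99. The upstream peak lies inside mex-5, 364 bp from the start of that gene, and is the fourth sequence above. No peak of 1 library at rec-8 overlapped a peak of another.

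The synaptonemal complex gene syp-1 had 3 pooled peaks, of which that in the 5' UTR (V, 16405516 to 16405945, signal 5.69) had its summit at the same base as a replicate 1 peak (signal 4.88, rank 541 of 9666). Replicates 2 and 4 had no peak at syp-1. At syp-3 a pooled peak 83 bp from a start (I, 8664147 to 8664576, signal 7.06) had the same summit as a replicate 2 peak (signal 5.28, rank 2993). A second pooled peak at syp-3 lay 669 bp upstream (signal 6.83), nearer to the start of F39H2.3, 138 bp away. No library peak overlapped it. A replicate 1 peak at syp-3 lay elsewhere, downstream of the gene and 1251 bp from a start (signal 5.29, rank 370 of 9666). Replicate 4 had none. Of the axis genes, which encode HORMA domain proteins, htp-3 had a pooled peak near its 3' end (signal 5.27) and a replicate 2 peak in an intron (signal 4.14), and htp-1 had 1 pooled peak downstream of the gene (signal 5.95), with elo-6 the nearest protein-coding start (1093 bp) and the ncRNA gene F41H10.36 nearer still (832 bp), and no library peak.

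**Figure D4:**
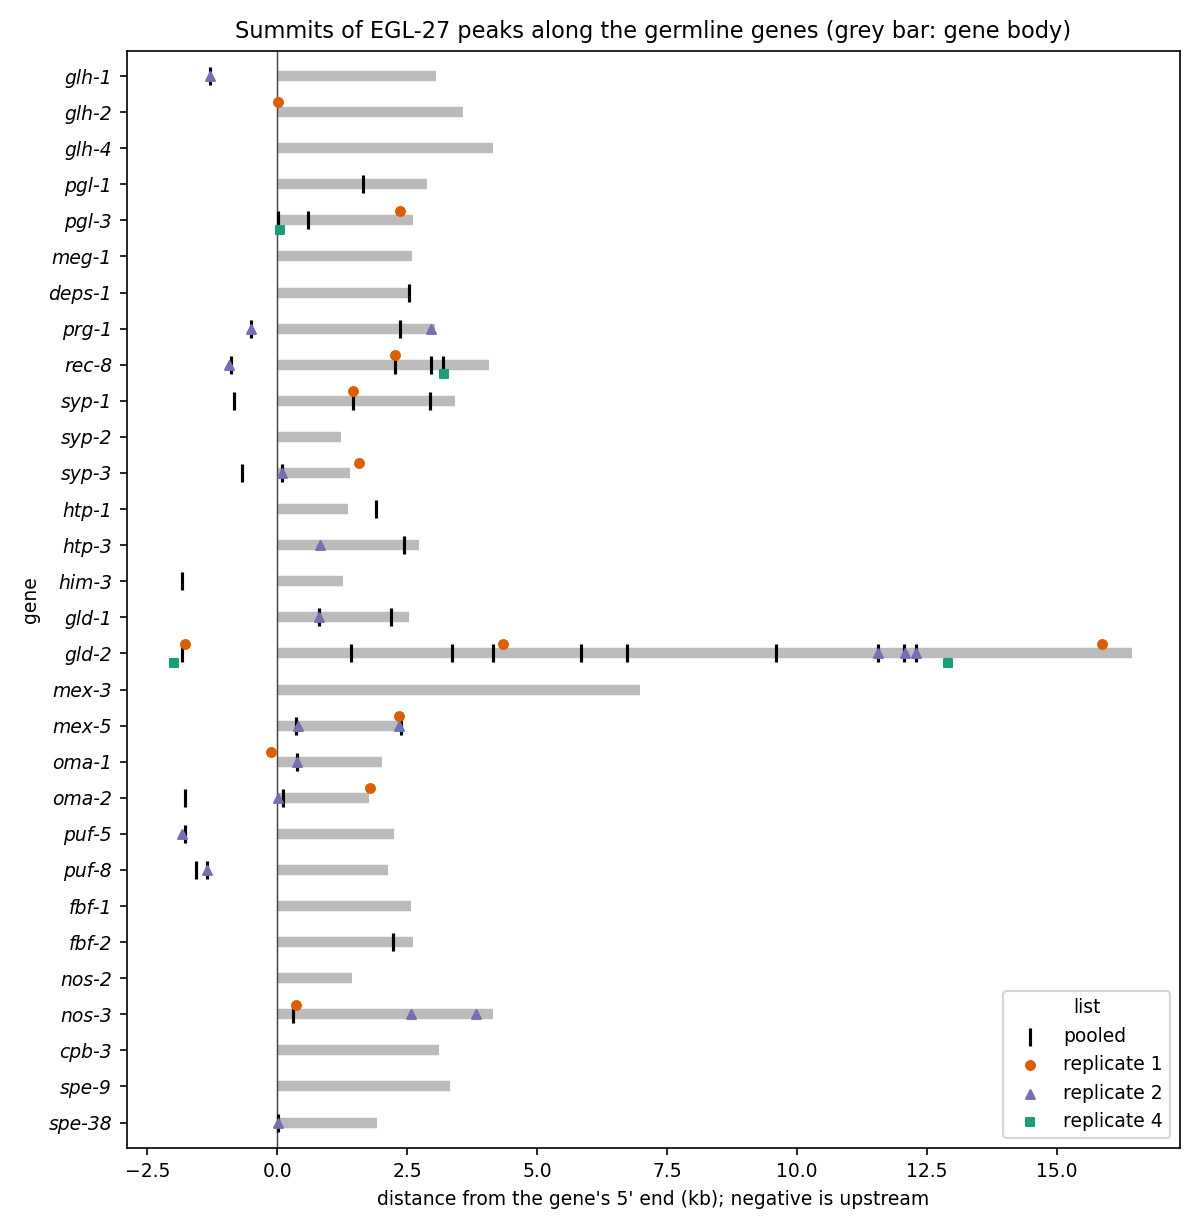
Summit positions along each of the 30 germline genes, as distance in kb from the gene's 5' end with upstream negative. Grey bars are gene bodies, black ticks pooled peaks and coloured symbols peaks of the libraries; symbols of different libraries coincide at the 3' end of mex-5 (summits 3 bp apart).

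Among the 13 RNA regulators 9 had a pooled peak, 5 a replicate 1 peak, 8 a replicate 2 peak and 1 a replicate 4 peak. Set against 77.3%, 39.9%, 49.9% and 28.7% of all protein-coding genes, the pooled and replicate 1 counts lie near the share of all genes. The gene gld-2, for a cytoplasmic poly(A) polymerase, is the longest of the 30 with 16447 bp and 6 transcript starts, and its 18447 bp window held 10 pooled peaks, with signals from 3.76 to 8.29. Per length this is 542 peaks per Mb, close to the 553 of syp-1 and the 508 of rec-8, the next genes in number of pooled peaks. Replicate 1 had 3 peaks at gld-2 (signals 2.02, 2.60 and 2.99), replicate 2 had 3 (3.73, 4.60 and 3.8) and replicate 4 had 2 (3.34 and 2.76). A peak of replicate 1 and a peak of replicate 4 overlapped upstream of the gene, with summits 195 bp apart, and a pooled peak lay between them (I, 6367698 to 6368127, signal 6.57). Its summit was 1835 bp from the nearest start of gld-2 and 357 bp from that of ZC308.4, so the window rule assigns it to gld-2 and the nearest start to ZC308.4. The 3 replicate 2 peaks lay in an intron and in coding exons, within 664 bp of a start.

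The gene mex-5, for a zinc finger protein that sets polarity in the embryo, was the exception in which libraries coincided. At its 3' end replicate 1 had a summit 3 bp from that of replicate 2 (signals 2.18, rank 8455 of 9666, and 4.46, rank 5538 of 13686), with a pooled peak over both (IV, 13355889 to 13356318, signal 8.46, rank 3064). Replicate 4 had no peak at mex-5. The pooled summit lay in the 3' UTR, 2381 bp from the gene's start, and 213 bp from the start of W02A2.8. Both library signals were in the lower or middle part of their lists.

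The oocyte maturation genes oma-1 and oma-2 encode related zinc finger proteins. At oma-1 the pooled peak (IV, 8889133 to 8889562, signal 4.93) lay in an intron 372 bp from the start, and a replicate 2 summit lay 2 bp away (signal 5.40, rank 2720). Replicate 1 had a peak at another place, 118 bp upstream of the start (signal 3.66, rank 1936). At oma-2 the pooled peak 112 bp from the start (V, 8029336 to 8029765) had the highest signal at any of the 30 genes, 9.18, and a replicate 2 peak with a summit 94 bp away had 3.61 (rank 9951 of 13686). A second pooled peak at oma-2 lay 1783 bp upstream (signal 6.27), nearer to the start of F43H9.4, 948 bp away. No library peak overlapped it. The replicate 1 peak at oma-2 lay downstream of the gene, 179 bp from the start of vars-1 (signal 3.43). Replicate 4 had no peak at either gene.

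The gene gld-1, for a KH domain repressor of translation, had pooled peaks in a coding exon 802 bp from its start (I, 7696268 to 7696697, signal 7.11) and in its 3' UTR (signal 6.4), and a replicate 2 peak 3 bp from the first (signal 5.0, rank 3533), with none in replicates 1 and 4. The Nanos gene nos-3 had a pooled peak in an intron, 77 bp from a start (signal 5.70), with a replicate 1 summit 52 bp away (signal 4.02, rank 1281), while the 2 peaks of replicate 2 lay elsewhere in the gene (signals 3.41 and 3.33). Of the Pumilio-family genes, puf-5 had 1 pooled peak with 1 replicate 2 partner, both upstream (signals 3.79 and 4.12), and puf-8 had 2 pooled peaks upstream (signals 4.30 and 3.76) over 1 replicate 2 peak (signal 5.42). These summits were nearer to other genes, F54C9.7 and C30G12.1. The Pumilio-family gene fbf-2 had 1 pooled peak in a coding exon (signal 3.93) and no library peak, and its near-copy fbf-1 had none.

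Of the pair of sperm genes, which encode membrane proteins needed at fertilisation, spe-38 had a pooled peak in its 5' UTR, 23 bp from the start (I, 10966144 to 10966573, signal 5.15), at the same base as a replicate 2 peak. That peak, with a signal of 6.04 and a rank of 1637 of 13686, was the highest of replicate 2 at the 30 genes. Replicates 1 and 4 had no peak there, and spe-9 had none in any list.

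The place of the pooled peaks within the genes was then compared with that at all genes. Counted as pairs of a gene and a peak, of which there were 42 because 2 peaks lie in the windows of 2 members each, 11 (26.2%) were upstream of the gene, 3 in a 5' UTR, 11 in coding exons, 13 in introns, 3 in a 3' UTR and 1 downstream. Over all protein-coding genes 37.6% of pairs were upstream, 1.79% in a 5' UTR, 20.2% in coding exons, 28.4% in introns, 3.59% in a 3' UTR and 8.24% downstream. For each place the members' interval held the share of all genes. Within 500 bp of a start of the same gene lay 11 of 42 (26.2%, exact binomial interval 13.9 to 42%), against 25.7% of the pairs of all protein-coding genes. For 26 of the 40 peaks (65.0%) the nearest protein-coding start was that of a member, and for the rest it was that of another gene. The matching share for pooled peaks at all protein-coding genes was not counted.

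The sequence of some members is repeated in the genome, which bears on where reads can be placed. Of the 31-base words of the gene body, 30.8% occurred once in the genome at glh-4, 54.5% at nos-2, 68.7% at fbf-1 and 69.4% at fbf-2. Of all distinct words of glh-4, 65.4% were also in a pseudogene on the X chromosome. Of those of nos-2, 34.7% were also in a pseudogene on chromosome II, and fbf-1 and fbf-2 shared 31.1% and 30.6% of their words with each other. Of these 4 genes 3 had no peak in any list, and 51.5% of the 1349 protein-coding genes with under 70% unique words had none. At glh-1 and glh-2 the unique share was 87.0% and 84.8%, and at spe-9 94.2%. Of the 23 members with 95% or more, 4 had no peak in any list (17.4%), against 12.3% of such genes, and 19 had a pooled peak (82.6%), against 80.6%. In replicate 4 the 23 had 3 (13.0%), against 30.6%. The deposited README texts list signal tracks of unique reads, but no source used here states whether the peaks rest on unique reads alone. The part of repeated sequence in the missing peaks was not tested.

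**Figure D5:**
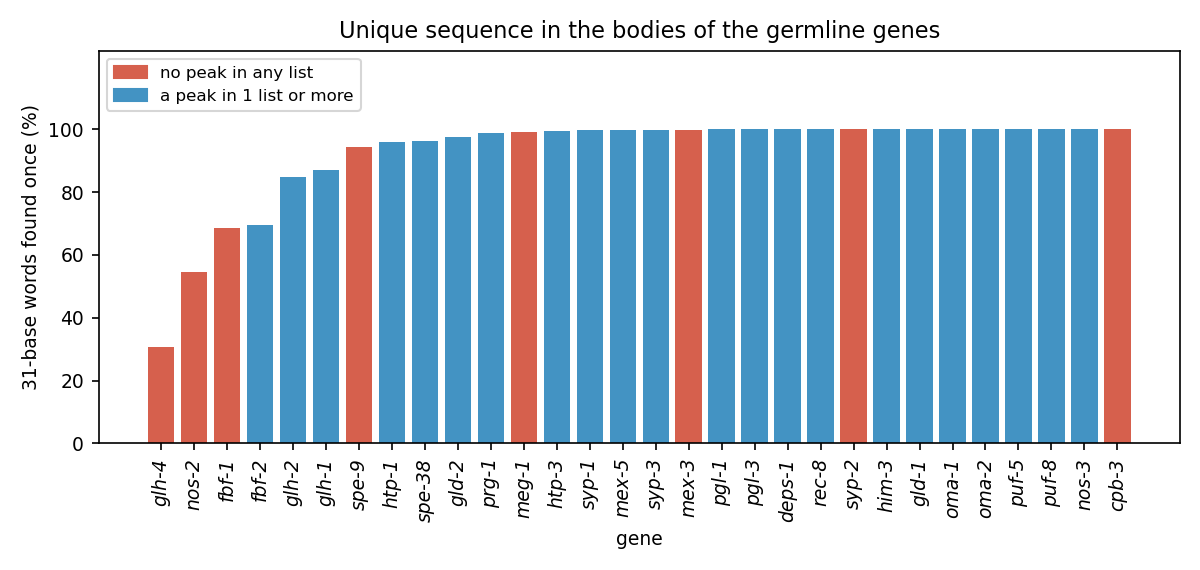
Percent of 31-base words in the gene body that occur once in the genome (vertical axis) for each of the 30 germline genes, sorted, with genes that have no peak in any list in red. Of the 4 genes under 70%, 3 are red (glh-4, nos-2, fbf-1); the other 5 red genes have 94.2% or more.

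The nearest reproducible peaks lay well outside the windows. From the nearest start of a member to the nearest reproducible summit on the same chromosome the median distance was 327661 bp, and 3 members had one within 20000 bp. The reproducible list holds 1.02 peaks per Mb of the nuclear genome, so long distances go with its short length. These distances were not measured for all protein-coding genes. For glh-4 it was 5326 bp away (I, 3721486 to 3721915, signal 20.7), nearest to lin-59. For deps-1 it was 11823 bp away, nearest to acs-13, and for puf-5 14130 bp away, nearest to iff-2. The pooled list had a summit closer to the windows of genes with no pooled peak, 171 bp outside that of cpb-3, a CPEB gene, and 364 bp outside that of fbf-1, while for mex-3, a KH domain regulator with 99.9% unique words, it was 3367 bp outside.

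Other germline genes of the same roles, 80 of 81 listed genes that the annotation holds, were counted by the same rule. A pooled peak was found at 66 (82.5%), a peak in replicate 1 at 37 (46.2%), in replicate 2 at 37 (46.2%) and in replicate 4 at 16 (20%), and a peak in all 3 libraries at 5 (6.25%). The shares of all protein-coding genes were 77.3%, 39.9%, 49.9%, 28.7% and 10.8%. A reproducible peak was found at 1, egg-5, listed under sperm and egg function: its pooled signal of 45.5, 573 bp from its start, is the highest of the whole list. The others with peaks in all 3 libraries were cgh-1, for an RNA helicase of germ granules (highest pooled signal 11.1), cosa-1, a crossover protein (7.24), spo-11, whose product makes the DNA breaks of meiosis (6.63), and glp-1, the Notch receptor of germline stem cells (5.97). By role a pooled peak was found at 12 of 14 genes of P granules and small RNA, 15 of 20 of meiosis, 18 of 22 RNA regulators and 21 of 24 of sperm and egg function, against 77.3% of all protein-coding genes. For reference, 20 of 20 muscle genes, whose median window is 8808 bp, and 77 of 78 ribosomal protein genes, whose median window is 4001 bp, had a pooled peak. In replicate 4, 9 of the muscle genes and 47 of the ribosomal protein genes had one, against 28.7% of all protein-coding genes.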

How the data were processed

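Peak lists on build ce11 were used as deposited. Per the deposited README texts, each library's list was made from its alignment and a control, the pooled list from the 3 alignments and the control, and the reproducible list from these by the irreproducible discovery rate (IDR) procedure. No source used here names the aligner, the peak caller or the thresholds. The deposited signal is a value per peak on an unstated scale. The deposited q column was read as a score, since it falls below 0. Genes came from Ensembl release 115 and sequence from RefSeq WBcel235, the assembly of ce11. The libraries shared 2 to 11 identical summits with each other and were counted as 3 samples.

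Summits were assigned with Python 3.11.15, pandas 2.3.3 and numpy 2.4.6, tested on planted peaks. Exact 95% intervals came from scipy 1.17.1. A word counted as unique when its 31 bases, on either strand, occurred once. With 1 group and genes chosen by name, no test was made. The rule for values per list took every member with a reproducible peak or with summits of all 3 libraries within 100 bp (none), the 6 members with the highest pooled signal and the 6 with the most pooled peaks, with ties. Values of the other members were added after seeing the data. Of the other germline genes it took, per role, up to 3 with the highest pooled signal among those with a peak in all 3 libraries, and any with a reproducible peak. The members and lists were chosen with earlier results of these data known. Lists on build ce10 were not analysed here.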

Additional observations from a re-analysis of the deposited data

How the results depend on the processing

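Counts over the 30 genes moved with the rule, and so did those of all protein-coding genes. With each summit given to the nearest start alone, 13 genes had a pooled peak (against 59.9% of all protein-coding genes), 6 a replicate 1 peak (26.4%), 5 peaks in 2 or more libraries (20.2%) and 0 in all 3 (4.64%). With lists cut to the length of the shortest, 6636 peaks, 6 had a pooled peak, against 29.6% of all protein-coding genes. There 8 had a replicate 2 peak (against 29.3%), 5 peaks in 2 or more libraries (against 23.7%) and 1 in all 3 (against 6.33%). Of the 6 pooled peaks left, 0 had GAGAGA (0%). In the gene body alone 5 genes had peaks in 2 or more libraries (against 16.1% of all protein-coding genes) and 1 in all 3 (against 4.39%). Within 500 bp of a start 1 had peaks in all 3 (against 5.94%). Summits within 100 bp left 1 gene for 2 or more libraries and 0 for all 3. With 1 replicate left out, the count for both remaining libraries was the same for either rule on libraries. It ran from 2 without replicate 1 (against 18.3% of all protein-coding genes) to 7 without replicate 4 (against 23.9%). Without replicate 2 it was 3 (against 15.2%). With the distance from a start widened to 1000 bp, 47.6% of the pairs lay within it. Settings chosen after seeing the data were genes with a window under 5000 bp, genes with 95% unique words or more, and gld-2 left out. With a window under 5000 bp 19 members were left. Of these 15 had a pooled peak (78.9%, against 71.2% of such genes) and 9 a replicate 2 peak (47.4% against 42.1%), both shares above those of all such genes. Replicate 1, with 5 (26.3% against 32.8%), and replicate 4, with 1 (5.26% against 22.6%), lay below. Of the 82 alternatives, 61 kept a count within 1.5 times the reported one or a value inside its interval. The members' share was below that of all protein-coding genes in all 10 settings for replicate 4 and all 12 for all 3 libraries, but in 7 of 10 for the pooled list and 6 of 10 for replicate 2. These settings recount the same genes and lists, so they are not independent and the tally adds no support. For all 3 libraries, the settings with 1 replicate left out need peaks in 2 libraries only. The causes were not tested beyond what fewer peaks or genes account for by construction. No paired analysis was possible because there is 1 group.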

Other observations

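Some peaks at other germline genes stand out and were chosen after their values were seen. The crossover regulator gene zhp-3 had 1 pooled peak with a signal of 17, rank 147 of 30000, in an intron 1221 bp from a start, with a peak in replicate 1 and none in replicates 2 and 4. The sperm gene spe-49 had a pooled peak 91 bp upstream of a start with a signal of 13.2 (rank 429). At fer-1, for a ferlin of sperm, replicate 1 had 4 peaks, while the pooled list and replicates 2 and 4 had 0.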
